A study of Mus musculus with 14 samples.

Results

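The genes described here are 31 lysosomal genes, 30 of which encode acid hydrolases or proteins of the lysosomal membrane and 1 of which encodes TFEB, a transcription factor of lysosomal genes. They were chosen by symbol from what lysosomal proteins are known to do, with earlier results of these data known. They are 31 of the 54532 rows of the count table. All 31 were present in the table, none was listed more than once, and all 31 passed the filter on low counts in each of the 5 comparisons. By role they are 6 cysteine proteases (Ctsb, Ctsc, Ctsh, Ctsl, Ctsz and Lgmn), 2 other proteases (Ctsa and Ctsd), 4 sulfatases (Arsa, Arsb, Sgsh and Ids), 10 glycosidases (Gusb, Hexa, Gaa, Gla, Glb1, Galc, Naglu, Idua, Man2b1 and Fuca1), 3 genes of lipid breakdown (Psap, Asah1 and Lipa), 5 membrane genes (Lamp1, Lamp2, Cd63, Cd68 and Mcoln1) and the regulator Tfeb.

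RNA sequencing was done on bulk bone marrow cells of C57BL/6 mice, sorted as long-term haematopoietic stem cells (LT-HSC) or as granulocyte-monocyte progenitors (GMP). AML1-ETO mice had the genotype Runx1-Runx1t1, the mouse counterpart of the fusion gene of t(8;21) acute myeloid leukaemia, and gave 3 LT-HSC and 3 GMP libraries. Control mice had the genotype WT and gave 4 LT-HSC and 4 GMP libraries. The labels list intraperitoneal poly(I:C) (5 mg/kg, 4 doses on alternate days) under every sample, controls included. Poly(I:C) switches on Mx1-Cre, which induces Runx1-Runx1t1, and the Mx1 promoter answers to interferon and is not limited to blood stem cells. The age of the mice, the surface markers of the sort and whether replicates came from separate mice are not given, and a p-value here reflects only how these libraries vary, which may be technical. Because the samples are bulk, fewer cells of a type and less RNA per cell cannot be told apart.

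Lysosomes are acidic vesicles in which proteins, glycans, sulfated sugars and lipids delivered by endocytosis, phagocytosis and autophagy are broken down. Most soluble hydrolases are tagged with mannose 6-phosphate in the Golgi apparatus, carried to lysosomes by receptors and matured by cathepsins, while LAMP proteins line the membrane. TFEB and its relatives TFE3 and MITF bind a palindromic E-box in the promoters of many of these genes, and nutrient signalling through mTORC1 keeps TFEB in the cytoplasm. In blood, macrophages are rich in lysosomal hydrolases, granules of mast cells and granulocytes are related to lysosomes, and CD63 is used as a marker of mast cell and basophil granules.

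The libraries held 13210952 to 19403864 counts. Levels are given as CPM, which are counts scaled to library size with TMM factors over the 14 libraries, and levels of different genes are compared only as CPM per kb of exon. Runx1t1, part of the induced fusion, was at 85.6, 164 and 125 CPM in AML1-ETO and 3.97, 0, 18.2 and 11.2 CPM in control LT-HSC libraries, and at 26.0, 26.3 and 45.7 CPM in AML1-ETO and 2.62, 2.32, 1.69 and 2.74 CPM in control GMP libraries. The sum of 10 GMP markers was 127 to 464 CPM in control LT-HSC and 29494 to 33661 CPM in control GMP libraries, and the sum of 10 LT-HSC markers was 947 to 1966 and 358 to 407 CPM. Several libraries stood apart. AML1-ETO GMP 1 held the complement genes C1qa, C1qb and C1qc of macrophages at 157, 199 and 161 CPM, against at most 21.9 CPM of any of the 3 genes in AML1-ETO GMP libraries 2 and 3 and at most 1.45 CPM in control GMP. Control LT-HSC 2 had the highest sum of 12 B and plasma cell markers, 77318 CPM, and control LT-HSC 3 the fewest genes with a count, 12106.

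Promoters were read from RefSeq (GRCm38.p6), from 250 bases before to 50 bases after each start site, for 28 of the 31 members. The palindrome CACGTG, the E-box core bound by the TFEB family, was searched. Because it is a palindrome, a match on either strand is the same match, and a TCACGTG match is also a CACGTG match. CACGTG was present for 12 of the 28 members (42.9%), or in 12 of their 33 promoters (36.4%), against 7.15% of all 32851 promoters of that length. The longer TCACGTG, on either strand, was present for 11 of the 28 (39.3%), or in 11 of their 33 promoters (33.3%), against 3.77% of all promoters. The 12 members were Arsa, Ctsa, Ctsd, Ctsl, Gaa, Gla, Glb1, Lamp1, Lgmn, Mcoln1, Naglu and Sgsh. They held 19 matches, 13 of which began within the 100 bases before the start site. A match describes the letters and not a bound site. The 250 bases before the start sites of Ctsd and Lamp1 are shown because Ctsd was higher in AML1-ETO cells of both types and Lamp1 held the most matches, with CACGTG in capitals, 5′ to 3′ on the gene strand.
Ctsd (chr7:142387828-142388077, minus strand): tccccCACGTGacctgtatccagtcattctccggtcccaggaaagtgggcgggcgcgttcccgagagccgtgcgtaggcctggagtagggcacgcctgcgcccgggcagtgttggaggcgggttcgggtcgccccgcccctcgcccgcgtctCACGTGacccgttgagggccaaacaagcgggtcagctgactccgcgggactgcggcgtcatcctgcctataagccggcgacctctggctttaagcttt
Lamp1 (chr8:13158911-13159160, plus strand): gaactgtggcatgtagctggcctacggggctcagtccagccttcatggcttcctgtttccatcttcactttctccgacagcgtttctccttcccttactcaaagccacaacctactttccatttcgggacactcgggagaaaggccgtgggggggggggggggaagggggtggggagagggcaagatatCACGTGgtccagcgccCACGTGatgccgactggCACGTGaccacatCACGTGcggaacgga
Windows of 30 bases around the matches of 6 other members are shown because these genes differed between groups below.
Ctsl (chr13:64370739-64370768, minus strand): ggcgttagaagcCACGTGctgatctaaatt
Sgsh (chr11:119355522-119355551, minus strand): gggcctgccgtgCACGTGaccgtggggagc
Glb1 (chr9:114401018-114401047, plus strand): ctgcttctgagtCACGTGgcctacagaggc
Naglu (chr11:101070009-101070038, plus strand): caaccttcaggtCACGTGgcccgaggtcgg
Lgmn (chr12:102439124-102439153, minus strand): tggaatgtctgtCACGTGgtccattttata
Ctsa, match before the start site (chr2:164833749-164833778, plus strand): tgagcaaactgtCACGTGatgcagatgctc
Ctsa, match after the start site (chr2:164833766-164833795, plus strand): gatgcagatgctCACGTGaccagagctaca
Ctsd held matches beginning 245 and 98 bases before its start site and Lamp1 held 4, at 61, 45, 28 and 15 bases before. The match of Sgsh began 29, that of Lgmn 49, that of Glb1 48 and that of Naglu 73 bases before the start site, while that of Ctsl lay 236 bases before it. The windows of Cd63, Man2b1 and Hexa held none of these letters, and Ctsb, Ctsh and Asah1 had no entry. All distances are from RefSeq start sites, and some GENCODE gene spans given below start further upstream. The match of Ctsl and the match of Ctsd at 98 bases lie inside those spans.

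**Figure D1:**
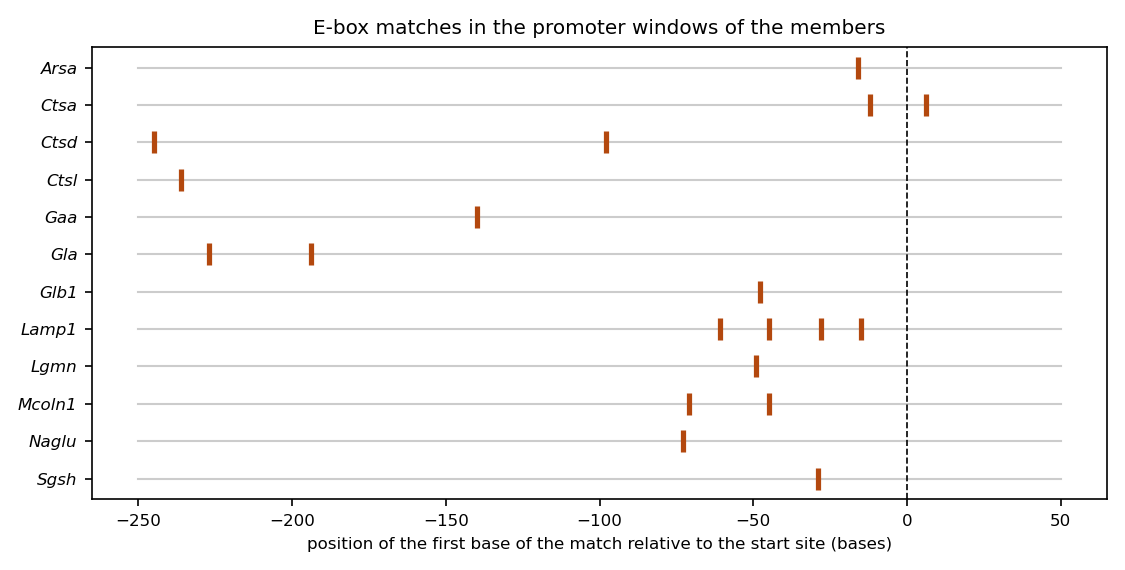
Positions of CACGTG in the promoter windows of the 12 members that hold it, in bases relative to the start site (dashed line at 0), with 1 tick per match and grey lines marking the 250 bases before to 50 bases after the start site. Of the 19 ticks, 13 lie within 100 bases before the start site.

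By group mean per kb of exon, Psap was the highest member in all 4 groups. Psap encodes prosaposin, the precursor of the saposins that present sphingolipids to hydrolases. In control LT-HSC it stood at 145 ± 42.2 CPM per kb, followed by Ctsd at 60.1 ± 11.7, Lamp1 at 56.5 ± 17.0 and Ctsz at 48.2 ± 8.76 (mean ± SD, n = 4), and each pair of the last 3 differed by less than the sum of their SDs. In AML1-ETO LT-HSC the order per kb was Psap at 199 ± 9.90, Ctsd at 131 ± 12.2, Cd63 at 111 ± 13.1 and Hexa at 62.1 ± 8.50 (n = 3), and Ctsd and Cd63 differed by less than the sum of their SDs. In control GMP the order per kb was Psap at 236 ± 14.5, Ctsz at 213 ± 17.5, Hexa at 137 ± 6.50 and Lamp1 at 127 ± 13.5 (n = 4), and Psap and Ctsz, as well as Hexa and Lamp1, differed by less than the sum of their SDs. In AML1-ETO GMP, Psap stood at 334 ± 251 and Ctsz at 230.3 ± 69.2 CPM per kb (n = 3), but only libraries 1 and 3 had Psap above Ctsz. Psap was at 620.5, 152 and 231 CPM per kb in libraries 1 to 3 and Ctsz at 304, 221 and 166. The lowest members per kb were Galc in control LT-HSC (0.9996 ± 0.462), Arsb in AML1-ETO LT-HSC (0.332 ± 0.189), Lgmn in control GMP (0.934 ± 0.630) and Sgsh in AML1-ETO GMP (0.839 ± 1.16 CPM per kb).

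The median coefficient of variation of the members was 32.3% over the 4 control LT-HSC libraries, 12.3% over the 3 AML1-ETO LT-HSC libraries, 6.97% over the 4 control GMP libraries and 34.7% over the 3 AML1-ETO GMP libraries. The summed level of the 31 members was 1717 to 2640 CPM in control LT-HSC, 3128 to 3306 CPM in AML1-ETO LT-HSC, 4189 to 4455 CPM in control GMP and 4090 to 7585 CPM in AML1-ETO GMP. The LT-HSC groups did not overlap in this sum, and the GMP groups did. The highest sum belonged to AML1-ETO GMP 1, of which Psap alone was 1703 CPM.

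Whether AML1-ETO changes lysosomal genes in stem cells is asked by comparing AML1-ETO with control LT-HSC. In AML1-ETO LT-HSC, 4 of the 31 members rose, namely the membrane gene Cd63, the mannosidase Man2b1, the aspartic protease Ctsd and the hexosaminidase subunit Hexa, and 3 fell, namely the cysteine proteases Ctsh and Ctsl and the sulfatase Sgsh. The largest rise was 3.05 ± 0.34 on the log2 scale for Cd63 and the largest fall -3.46 ± 0.76 for Ctsh (fold change ± SE, 3 AML1-ETO against 4 control libraries). Among all 14589 genes tested, 7.59% were called higher and 4.69% lower, against 4 and 3 of the 31 members. Called means an adjusted p below 0.05 in edgeR's quasi-likelihood test. The median log2 fold change of the 31 members was 0.20, beside 0.03 over all genes tested, and 20 members had a positive and 11 a negative value. By role, 2 of 10 glycosidases, 1 of 2 other proteases and 1 of 5 membrane genes were called higher, 2 of 6 cysteine proteases and 1 of 4 sulfatases were called lower, and none of the 3 lipid genes nor Tfeb was called.

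**Figure D2:**
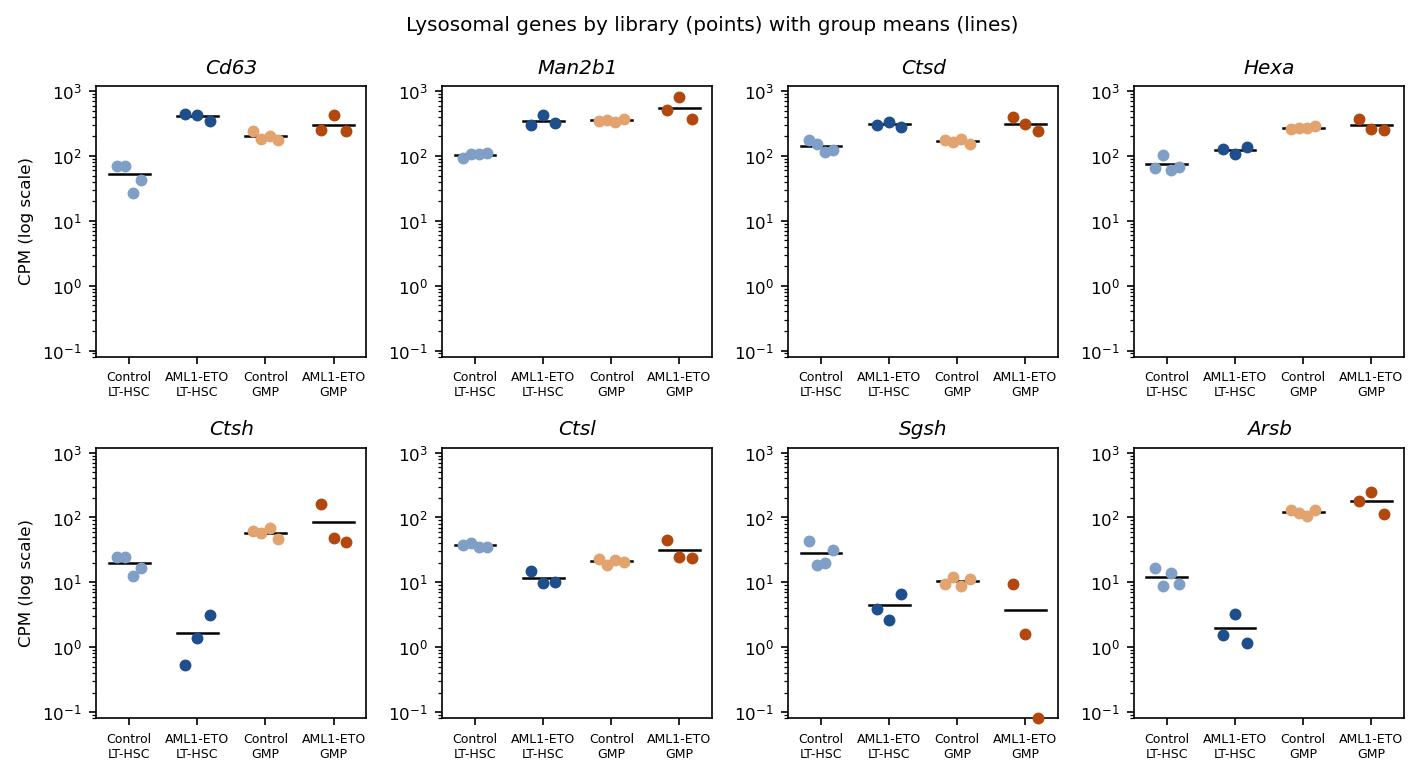
Levels (CPM, log axis) of 8 members in each of the 14 libraries (points, libraries in number order) with group means (lines), for control and AML1-ETO LT-HSC and GMP. Cd63, Man2b1 and Ctsd lie higher in all 3 AML1-ETO LT-HSC libraries than in the 4 controls, and Ctsh, Ctsl, Sgsh and Arsb lie lower. The AML1-ETO GMP library with 0 counts of Sgsh is drawn on the lower edge.

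Cd63 (chr10:128900989-128912822, plus strand, mm10), a tetraspanin of late endosomes, lysosomes and granules, was at 69.1, 71.3, 27.1 and 42.8 CPM in control LT-HSC libraries 1 to 4. In AML1-ETO LT-HSC libraries 1 to 3 it was at 442, 428 and 352 CPM. The lowest AML1-ETO library was far above the highest control. The log2 fold change was 3.05 ± 0.34 (adjusted p = 0.00201), and the call held without any 1 of the 7 libraries. Man2b1 (chr8:85083270-85098282, plus strand), the lysosomal alpha-mannosidase that trims the sugars of glycoproteins, was at 92.8, 108, 107 and 111 CPM in controls and 297, 427 and 328 CPM in AML1-ETO libraries. The groups were well apart and the controls close together, with a log2 fold change of 1.84 ± 0.17 (adjusted p = 0.00122). This call also held without any 1 library.

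Ctsd (chr7:142375911-142388038, minus strand), the main aspartic protease of the lysosome, was at 174, 153, 114 and 124 CPM in controls and 303, 339 and 282 CPM in AML1-ETO LT-HSC. All AML1-ETO libraries lay above all controls. The log2 fold change was 1.22 ± 0.20 (adjusted p = 0.00814, and 0.0571 without AML1-ETO LT-HSC 2). Of the exon bases of Ctsd, 34.4% are shared with a gene model on the same strand, Gm49369, so its reads could be divided between them. Hexa (chr9:59539540-59565109, plus strand), the alpha subunit of the hexosaminidase that degrades GM2 ganglioside, was at 65.0, 105, 60.5 and 66.7 CPM in controls and 127, 106 and 139 CPM in AML1-ETO libraries. The groups did not overlap, but AML1-ETO LT-HSC 2 and control LT-HSC 2 nearly met. The log2 fold change of 0.84 ± 0.23 passed narrowly (adjusted p = 0.0479) and was lost when any 1 library other than control LT-HSC 2 was left out, with adjusted p-values up to 0.187, and with upper-quartile scaling (0.0931).

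Ctsh (chr9:90054152-90076089, plus strand), an aminopeptidase of the papain family, was at 24.6, 24.6, 12.5 and 16.9 CPM in the controls and at 0.538, 1.38 and 3.12 CPM in AML1-ETO LT-HSC. The groups were well apart. The log2 fold change was -3.46 ± 0.76 (adjusted p = 0.0229), with adjusted p = 0.0793 without AML1-ETO LT-HSC 1 and 0.134 without AML1-ETO LT-HSC 2, and a fold change of -4.24 without AML1-ETO LT-HSC 3. Ctsl (chr13:64359337-64370890, minus strand), an endopeptidase of the same family, was at 37.5, 41.1, 35.6 and 34.5 CPM in the controls and at 15.1, 9.75 and 10.1 CPM in AML1-ETO LT-HSC. The controls were close together and far above the AML1-ETO libraries. The log2 fold change was -1.57 ± 0.31 (adjusted p = 0.0156), with adjusted p = 0.105 without AML1-ETO LT-HSC 2 and 0.0808 without AML1-ETO LT-HSC 3. Sgsh (chr11:119343425-119355536, minus strand), the sulfamidase of heparan sulfate breakdown, was at 43.4, 18.6, 19.9 and 31.6 CPM in the controls and at 3.94, 2.61 and 6.73 CPM in AML1-ETO LT-HSC. Every AML1-ETO library was below every control. The log2 fold change was -2.59 ± 0.55 (adjusted p = 0.0201), with adjusted p = 0.101 without AML1-ETO LT-HSC 1, 0.112 without AML1-ETO LT-HSC 2 and 0.0886 in a fit of all 14 libraries. Exons of Ctsl and Sgsh overlap genes on the opposite strand over 26.8% and 21.6% of their bases.

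The other 24 members were not called in LT-HSC, and their log2 fold changes ran from -2.51 ± 0.76 for Arsb to 1.25 ± 0.48 for Naglu. Arsb, arylsulfatase B, which removes sulfate from dermatan and chondroitin sulfate, was at 16.4, 8.66, 14.2 and 9.59 CPM in the controls and at 1.55, 3.30 and 1.16 CPM in AML1-ETO LT-HSC. Its groups did not overlap, but the adjusted p was 0.0666 by edgeR and 0.00153 by DESeq2. Ctsz, cathepsin Z, was at 64.8, 79.7, 79.6 and 53.7 CPM in the controls and at 38.4, 27.3 and 42.4 CPM in AML1-ETO LT-HSC. All 3 AML1-ETO libraries were lower, and the log2 fold change was -0.85 ± 0.25 (adjusted p = 0.0588, and 0.0388 with upper-quartile scaling). Ctsb, cathepsin B, an endopeptidase and carboxypeptidase, was at 131, 229, 132 and 155 CPM in the controls and at 108, 93.7 and 97.8 CPM in AML1-ETO LT-HSC. These groups did not overlap either, with a log2 fold change of -0.59 ± 0.23 (adjusted p = 0.133).

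Naglu, which removes N-acetylglucosamine from heparan sulfate, was at 31.3, 28.2, 9.77 and 9.52 CPM in the controls and at 39.4, 47.1 and 45.4 CPM in AML1-ETO LT-HSC, with a log2 fold change of 1.25 ± 0.48 (adjusted p = 0.133). The controls split into a higher and a lower pair. Glb1, the beta-galactosidase, was at 62.4, 56.9, 29.1 and 39.2 CPM in the controls and at 75.5, 85.3 and 89.0 CPM in AML1-ETO LT-HSC (0.92 ± 0.28 on the log2 scale, adjusted p = 0.0730). All 3 AML1-ETO libraries were above the controls, without passing the test. Psap was at 431, 545, 283 and 333 CPM in the controls and at 518, 545 and 572 CPM in AML1-ETO LT-HSC, where the groups overlapped at control 2 (log2 fold change 0.55 ± 0.24, adjusted p = 0.182). Lgmn, legumain, an asparaginyl endopeptidase, was low in every LT-HSC library, at 4.26, 1.98, 3.08 and 5.10 CPM in the controls and at 3.94, 2.92 and 3.24 CPM in AML1-ETO LT-HSC.

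Among membrane genes, Lamp1, a heavily glycosylated protein of the lysosomal membrane, was at 160.1, 211, 106 and 128 CPM in the controls and at 142, 141 and 157 CPM in AML1-ETO LT-HSC. The AML1-ETO libraries lay inside the range of the controls. Lamp2, its relative that also serves chaperone-mediated autophagy, was at 152, 125, 39.9 and 114 CPM in the controls and at 148, 181 and 171 CPM in AML1-ETO LT-HSC. Control LT-HSC 3 was the lowest library. Cd68, a LAMP relative of macrophages, was at 7.64, 10.5, 4.00 and 9.66 CPM in the controls and at 3.58, 6.07 and 2.32 CPM in AML1-ETO LT-HSC, with overlapping groups. Mcoln1, the TRPML1 calcium channel of the lysosomal membrane, was at 48.6, 65.5, 15.6 and 31.7 CPM in the controls and at 68.8, 63.6 and 68.3 CPM in AML1-ETO LT-HSC. Its control libraries varied widely and its AML1-ETO libraries little. Tfeb was at 36.6, 22.3, 16.7 and 13.3 CPM in the controls and at 26.4, 23.7 and 19.5 CPM in AML1-ETO LT-HSC, with AML1-ETO libraries inside the range of the controls.

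Markers of other cells differed between the LT-HSC groups too. Of 11 mast cell and basophil markers, 10 were tested and 10 were called higher in AML1-ETO LT-HSC, where their sum was 9542 to 12205 CPM against 446 to 673 CPM in controls, with Fcer1a, Mcpt4 and Prss34 at 0 counts in every control. Of 12 B and plasma cell markers, 11 were tested and 6 were called lower, with sums of 115 to 646 CPM in AML1-ETO LT-HSC, where Ms4a1 and Igll1 were at 0, against 13160 to 77318 CPM in controls. Of 10 erythroid markers tested, 5 were called lower, with sums of 49.9 to 134 CPM against 455 to 1588 CPM in controls and none at 0 in a whole group. Of 10 GMP markers, 9 were tested, 5 were called higher and 2 lower, with sums of 1188 to 1442 CPM in AML1-ETO LT-HSC, where Elane was at 0, against 127 to 464 CPM in controls, where Cebpe and Csf1r were at 0. The part of these cells in the members' differences was not tested. All 10 LT-HSC markers were tested, with 1 called higher and 2 lower, and with 6 positive and 4 negative values. Their sums were 1764 to 1924 CPM in AML1-ETO LT-HSC and 947 to 1966 CPM in controls. Mean levels of Mecom and Mllt3 were 10.7 and 23.1 CPM in AML1-ETO LT-HSC, against 109 and 111 CPM in controls. Those of Ly6a and Kit were 298 and 917 CPM, against 95.0 and 565 CPM. Without control LT-HSC libraries 2 and 3, all 7 called members were still called, and Ctsa was called as well. Of all genes called in LT-HSC, 61.8% were higher, against 51.7% with upper-quartile scaling, which moved the median of all genes from 0.03 to -0.10 on the log2 scale, and 47.1% by DESeq2. The 7 members kept their directions under these scalings.

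**Figure D3:**
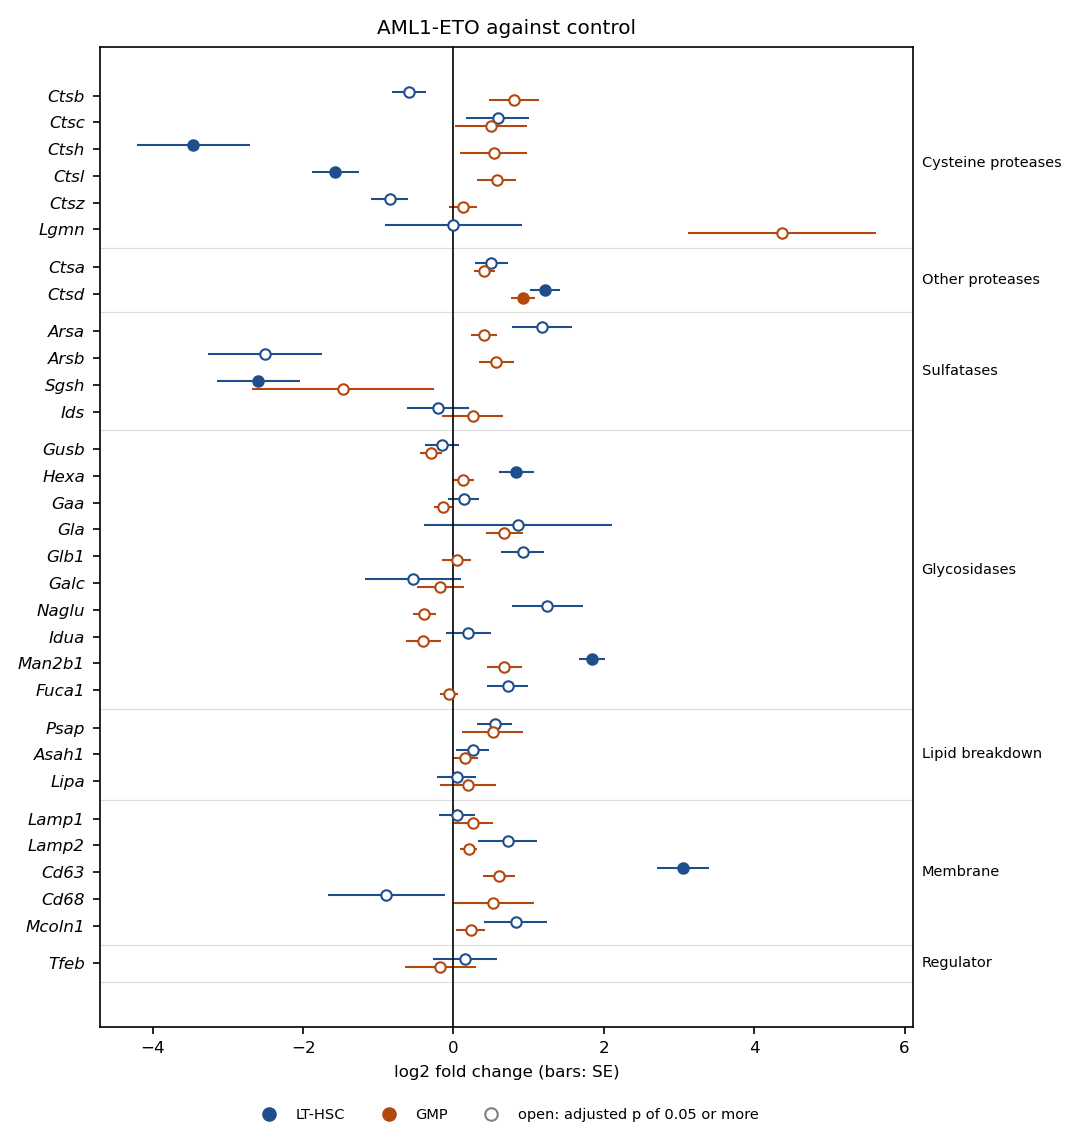
Log2 fold changes (points) with their SE (bars) of AML1-ETO against control for the 31 members, grouped by role, in LT-HSC (blue) and GMP (orange). Filled points passed an adjusted p under 0.05. The cysteine proteases Ctsh and Ctsl lie below 0 in LT-HSC and above 0 in GMP, Cd63 and Man2b1 lie further from 0 in LT-HSC than in GMP, and Ctsd is filled in both.

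The same question in the progenitors is answered by AML1-ETO against control GMP. Ctsd was the only member that passed the test there, and it rose by 0.93 ± 0.16 on the log2 scale (3 AML1-ETO against 4 control libraries). No member was called lower. Among the 13981 genes tested, 5.47% were called higher and 3.96% lower, against 1 and 0 of the 31 members. At an unadjusted p under 0.05 edgeR found 10 of the 31 members, beside 3370 of all 13981 genes tested. DESeq2 called 7 members, all higher, namely Ctsb, Lgmn, Ctsa, Ctsd, Gla, Man2b1 and Cd63. Over all genes DESeq2 called 2308, of which 1371 were higher. The median log2 fold change of the members was 0.25, beside -0.03 over all genes, with 23 positive and 8 negative values.

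Ctsd was at 174, 163, 180.4 and 154 CPM in control GMP and 395, 309 and 241 CPM in AML1-ETO GMP. All 3 AML1-ETO libraries lay above all 4 controls. The adjusted p was 0.0179, and it reached 0.0660 to 0.0765 when any 1 of the 4 control GMP libraries was left out, while the call held without any 1 of the AML1-ETO libraries. Ctsa, the protective protein that stabilises beta-galactosidase and neuraminidase, was at 157, 144, 167 and 164 CPM in the controls and at 258, 191 and 173 CPM in AML1-ETO GMP. These groups did not overlap, and the gene was not called. The log2 fold changes of the 30 members not called ran from -1.47 ± 1.204 for Sgsh to 4.37 ± 1.25 for Lgmn.

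Library 1 of AML1-ETO GMP stood apart for many members. It was the highest of the 3 for 17 of the 31 members, and for 13 of these 17 its level was over 1.5 times the mean of libraries 2 and 3. Lgmn was at 114, 2.09 and 17.2 CPM in AML1-ETO GMP libraries 1 to 3 and 3.53, 2.05, 2.92 and 0.175 CPM in controls. Ctsb was at 938, 354 and 347 CPM in AML1-ETO and 349, 306, 316 and 297 CPM in control GMP. Psap was at 1703, 417 and 634 CPM in AML1-ETO and 622, 642, 704 and 618 CPM in control GMP. In each of these, library 1 was far above the other 2, which lay near or below the controls except for Lgmn in library 3. Cd68 was at 86.9, 13.7 and 23.0 CPM in AML1-ETO and 30.8, 28.7, 29.1 and 27.0 CPM in control GMP. Ctsh was at 163, 47.5 and 42.3 CPM in AML1-ETO and 62.9, 56.7, 67.9 and 47.1 CPM in control GMP. Lamp1 was at 619, 315 and 275 CPM in AML1-ETO and 345, 318, 388 and 306 CPM in control GMP. For these 3 genes library 1 was again the high library, and Cd68 was lower in libraries 2 and 3 than in every control.

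Beside these values, the sum of 16 monocyte, macrophage and dendritic cell markers was 3231 CPM in AML1-ETO GMP 1 and 331 and 634 CPM in libraries 2 and 3, against 350 to 433 CPM in control GMP, with none of the 16 at 0 in a whole GMP group, and 9 of the 14 tested were called higher. The sum of 10 neutrophil markers was 3650 CPM in AML1-ETO GMP 1, 606 and 693 CPM in libraries 2 and 3 and 63.5 to 84.6 CPM in control GMP, with none at 0 in a whole GMP group, and 4 of the 8 tested were called higher. Of 10 mast cell and basophil markers tested, 8 were called higher, with sums of 2696 to 4081 CPM against 606 to 799 CPM in controls, where Mcpt4 and Tpsb2 were at 0. Of 10 erythroid markers, 3 were called higher, with sums of 216 to 4674 CPM, the highest in library 1, against 210 to 266 CPM in controls. The part of these cells in the members' values was not tested. Without AML1-ETO GMP 1 the median log2 fold change of the members was -0.08. Ctsd (0.72) and Arsa (0.54) were then called higher, and Ctsc (-0.55), Lipa (-0.54) and Naglu (-0.54) lower, by edgeR. These 5 of the 31 members stood beside 2477 genes called over all genes tested in that setting, 1258 of them higher. Ctsh, Ctsz, Hexa, Psap, Lamp1 and Cd68 changed sign without that library, Cd68 to -0.64 and Ctsh to -0.38, none of them called.

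**Figure D4:**
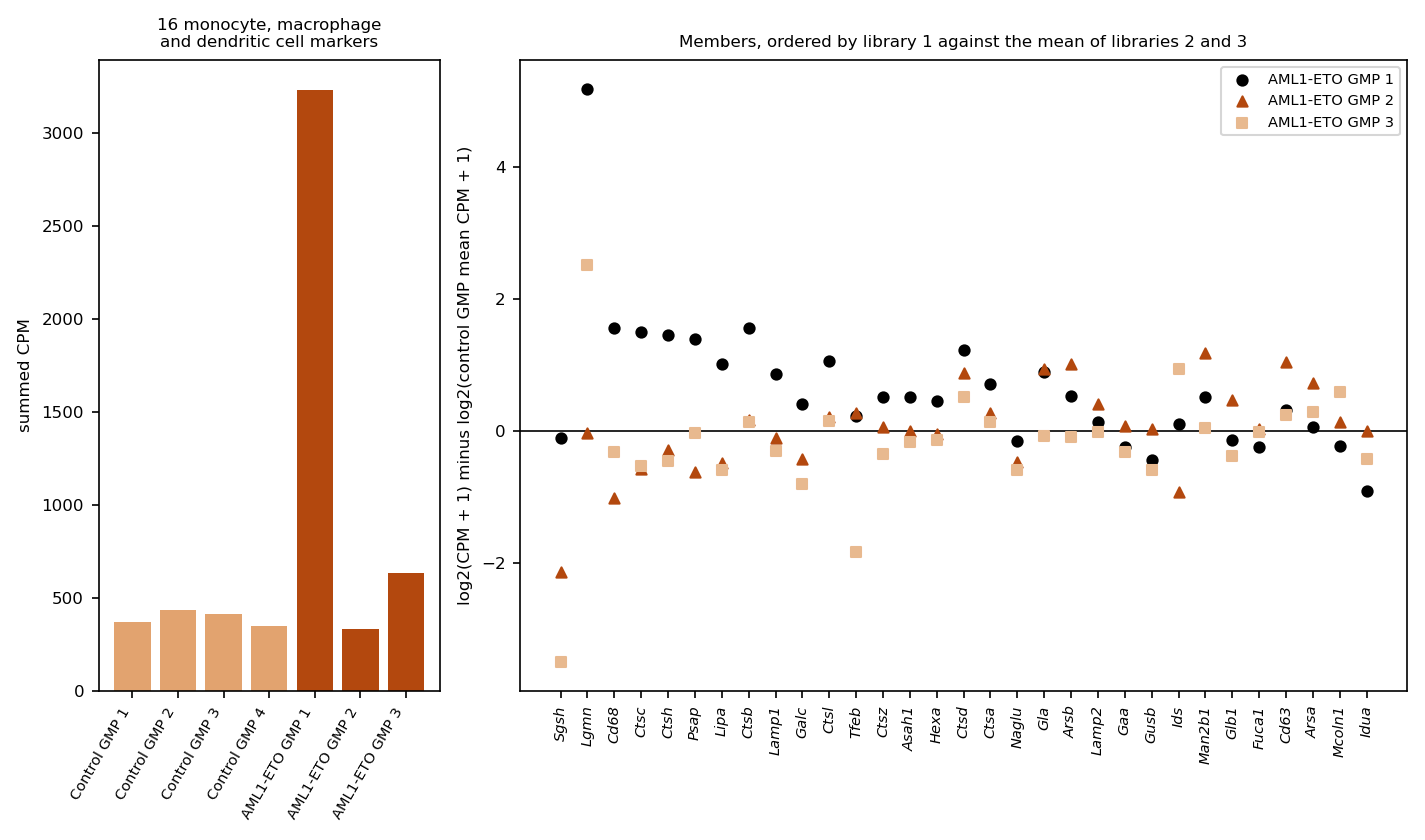
Left, summed level (CPM) of 16 monocyte, macrophage and dendritic cell markers in each GMP library (bars from 0, orange shades for control and AML1-ETO). Right, log2(CPM + 1) of each member in the 3 AML1-ETO GMP libraries minus that of the control GMP mean, members ordered by library 1 over the mean of libraries 2 and 3. The marker sum is 3231 CPM in library 1 and 331 and 634 CPM in libraries 2 and 3, and library 1 (black) lies above the other 2 for the members at the left.

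Other members varied in other ways. Man2b1 was at 505, 804 and 365 CPM in AML1-ETO and 345, 363, 334 and 370.2 CPM in control GMP (0.68 ± 0.23 on the log2 scale, adjusted p = 0.113). Cd63 was at 253, 421 and 240.4 CPM in AML1-ETO and 245, 185, 205 and 177 CPM in control GMP (0.60 ± 0.21, adjusted p = 0.122). Arsb was at 177, 247 and 114 CPM in AML1-ETO and 132, 119, 107 and 132 CPM in control GMP (0.57 ± 0.23, adjusted p = 0.178). For all 3 genes library 2 was the highest of the AML1-ETO GMP libraries and library 3 lay within or close to the range of the controls. Sgsh was at 9.54, 1.57 and 0 CPM in AML1-ETO and 9.58, 12.1, 8.70 and 11.1 CPM in control GMP. It had 0 counts in AML1-ETO GMP 3, where 3 counts would be 0.184 CPM. Tfeb was at 25.8, 26.5 and 5.39 CPM in AML1-ETO and 21.8, 20.2, 23.1 and 22.7 CPM in control GMP, with library 3 the lowest. Mcoln1 was at 40.0, 52.0 and 71.6 CPM in AML1-ETO and 44.3, 50.6, 46.7 and 47.3 CPM in control GMP, with overlapping groups and library 3 the highest.

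Whether the AML1-ETO effect differed between GMP and LT-HSC was tested as an interaction over all 14 libraries, and a positive value means a higher log2 fold change in GMP. The 2 effects share no library. For 5 members they differed. The difference was 3.18 ± 0.48 for Arsb (adjusted p = 0.00237), 4.06 ± 0.76 for Ctsh (adjusted p = 0.00697), 2.23 ± 0.40 for Ctsl (adjusted p = 0.00592), -2.37 ± 0.42 for Cd63 (adjusted p = 0.00538) and -1.08 ± 0.30 for Man2b1 (adjusted p = 0.0477). Of the 16116 genes tested, 3.43% were called with a positive and 2.91% with a negative difference, against 3 and 2 of the 31 members. The median difference of the members was -0.01, beside 0.01 over all genes. The proteases Ctsh and Ctsl and the sulfatase Arsb had lower mean levels in AML1-ETO than in control LT-HSC and mean levels above control in GMP, although none of the 3 was called in GMP. For Ctsh the GMP mean lay above control through AML1-ETO GMP 1, without which the fold change in GMP was -0.38 and the difference 3.15 (adjusted p = 0.0168). Without AML1-ETO LT-HSC 3 the difference for Ctsh was 4.89. Cd63 and Man2b1 had positive fold changes in both cell types and larger ones in LT-HSC.

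Among the 26 members not called for a difference, values ran from -1.56 ± 0.52 for Naglu to 4.45 ± 1.45 for Lgmn. Ctsb (1.48 ± 0.43, adjusted p = 0.0559) and Ctsz (1.06 ± 0.30, adjusted p = 0.0526) did not pass the test. For Ctsd the difference was -0.22 ± 0.26 (adjusted p = 0.745), with fold changes of 1.22 ± 0.20 in LT-HSC and 0.93 ± 0.16 in GMP. The calls of Arsb, Ctsh, Ctsl and Cd63 held without any 1 library. That of Man2b1 was lost without any 1 library other than AML1-ETO GMP 2, with adjusted p-values of 0.0524 to 0.148, and those of Ctsh and Arsb were lost with limma-voom (0.176 and 0.118).

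Normal maturation from stem cell to progenitor was examined by control GMP against control LT-HSC. In control mice 15 of the 31 members were higher in GMP and 1, Ctsl, was lower, against 13.9% higher and 10.6% lower of the 16116 genes tested. The largest rise was that of Arsb, 3.32 ± 0.32 on the log2 scale, followed by Ctsz, Cd63, Hexa and Cd68 (4 against 4 libraries). The median log2 fold change of the members was 0.85, beside 0.02 over all genes, with 25 positive and 6 negative values. By role, those higher were 3 of 6 cysteine proteases (Ctsb, Ctsh and Ctsz), 1 of 2 other proteases (Ctsa), 1 of 4 sulfatases (Arsb), 5 of 10 glycosidases (Gusb, Hexa, Glb1, Naglu and Man2b1), 1 of 3 lipid genes (Asah1) and 4 of 5 membrane genes (Lamp1, Lamp2, Cd63 and Cd68). Of all genes called here, 56.9% were higher, against 47.4% with upper-quartile scaling and 40.6% by DESeq2, which moved the median of all genes from 0.02 to -0.12. The members' median was 0.69 by DESeq2.

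Markers of other cells differed between these groups as well. Of 12 B and plasma cell markers, 10 were called lower in control GMP, with sums of 159 to 191 CPM, where Ms4a1, Pax5 and Igkc were at 0, against 13160 to 77318 CPM in control LT-HSC. Of 10 erythroid markers, 8 were called lower, with sums of 210 to 266 CPM against 455 to 1588 CPM and none at 0 in a whole group. Of 7 megakaryocyte markers tested, 5 were called lower (87.3 to 118 CPM against 577 to 1117 CPM), with Gp1bb at 0 in both groups and Gp6 in LT-HSC. Of 7 T and NK cell markers tested, 5 were called lower and 1 higher (2.27 to 3.34 CPM against 78.8 to 136 CPM), and Cd3e, Cd3g, Cd8a and Gzma were at 0 in both groups. Of 11 mast cell and basophil markers, 6 were called higher and 1 lower (606 to 799 CPM against 446 to 673 CPM), with Mcpt4 at 0 in both groups. Of 14 monocyte, macrophage and dendritic cell markers tested, 5 were called higher and 2 lower (350 to 433 CPM against 222 to 1674 CPM), with Marco, Siglech and Csf1r at 0 in LT-HSC. The part of these cells in the members' differences was not tested. Without control LT-HSC 2 and 3 and AML1-ETO GMP 1, all 16 called members were still called.

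Arsb was at 16.4, 8.66, 14.2 and 9.59 CPM in control LT-HSC and 132, 119, 107 and 132 CPM in control GMP (adjusted p = 1.1e-05). Ctsz was at 64.8, 79.7, 79.6 and 53.7 CPM in control LT-HSC and 323, 279.8, 333 and 292 CPM in control GMP (2.15 ± 0.20 on the log2 scale, adjusted p = 1.0e-05). In both genes the lowest GMP library was far above the highest LT-HSC library. Hexa was at 264, 271, 268 and 293 CPM in control GMP (1.88 ± 0.19, adjusted p = 1.7e-05). Gusb, the beta-glucuronidase, was at 95.7, 120.1, 84.9 and 67.3 CPM in control LT-HSC and 237, 213, 236 and 231 CPM in control GMP (1.32 ± 0.18, adjusted p = 0.000199). These groups did not overlap, and the GMP libraries lay close together.

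Cd63 rose by 1.95 ± 0.28 (adjusted p = 0.000230), Lamp1 by 1.17 ± 0.25 (adjusted p = 0.00398) and Cd68 by 1.86 ± 0.52 (adjusted p = 0.0185). Lamp2 was at 233, 213, 228 and 229.9 CPM in control GMP, above all control LT-HSC libraries (1.07 ± 0.28, adjusted p = 0.0144). Glb1 was at 87.1, 97.2, 94.6 and 91.1 CPM and Naglu at 49.1, 54.5, 47.1 and 55.1 CPM in control GMP, in each case above every control LT-HSC library. Asah1, the acid ceramidase, was at 62.5, 65.1, 50.3 and 40.3 CPM in control LT-HSC and 72.2, 77.9, 85.2 and 81.8 CPM in control GMP (0.54 ± 0.18, adjusted p = 0.0451). Its groups did not overlap, but the call was lost with upper-quartile scaling (0.120) and by DESeq2 (0.171).

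Ctsl ran the other way. It was at 23.3, 18.2, 22.2 and 20.7 CPM in control GMP, below every control LT-HSC library, with a log2 fold change of -0.82 ± 0.26 (adjusted p = 0.0349). Ctsd, the member that rose with AML1-ETO in both cell types, was not called between the 2 control groups, which overlapped (0.25 ± 0.17, adjusted p = 0.319). Tfeb and Mcoln1 were not called. Leaving out 1 library ended the call of Ctsl (without control LT-HSC 1 or 2 or any 1 control GMP library, adjusted p up to 0.0959), Asah1 (without control LT-HSC 3 or 4 or any 1 control GMP library, up to 0.115), Ctsh (without control LT-HSC 3 or 4 or control GMP 1, 2 or 3, up to 0.0665) and Ctsb (without control LT-HSC 1, 3 or 4 or control GMP 1, up to 0.0640).

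**Figure D5:**
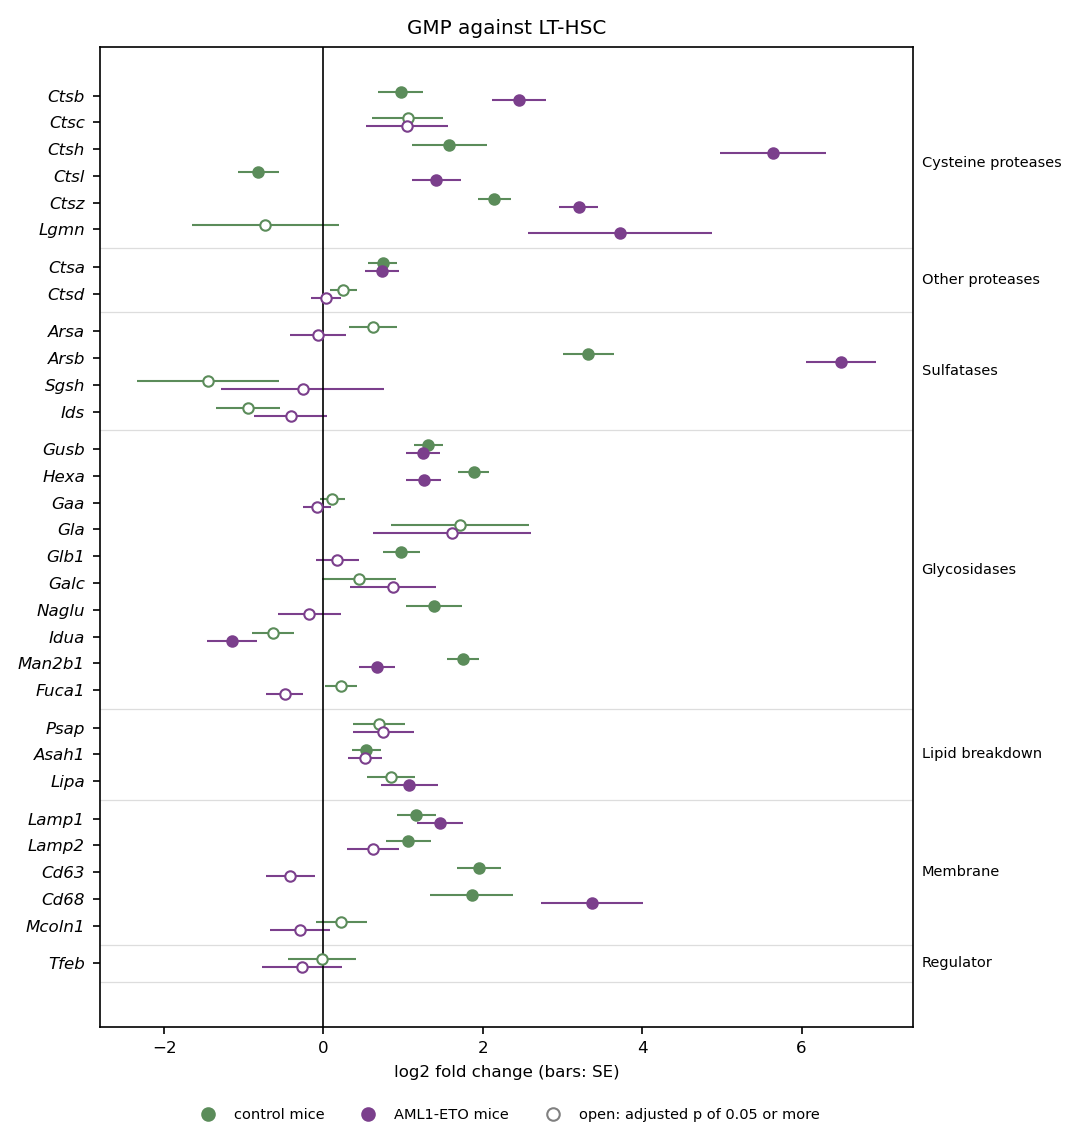
Log2 fold changes (points) with their SE (bars) of GMP against LT-HSC for the 31 members, grouped by role, in control mice (green) and AML1-ETO mice (purple). Filled points passed an adjusted p under 0.05. In control mice 15 filled points lie right of 0 and Ctsl left of it, and in AML1-ETO mice 13 lie right of 0, with Arsb and Ctsh furthest, and Idua left.

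The same step in AML1-ETO mice was examined by AML1-ETO GMP against AML1-ETO LT-HSC. There 13 of the 31 members were higher in GMP and 1, Idua, was lower, against 12.6% and 9.15% of the 16116 genes tested. Arsb was higher by 6.50 ± 0.44 on the log2 scale (adjusted p = 2.0e-06) and Ctsh by 5.64 ± 0.66 (adjusted p = 5.9e-05), and their mean levels in AML1-ETO LT-HSC were 2.01 and 1.68 CPM. The median log2 fold change of the members was 0.73, beside 0.00 over all genes, with 21 positive and 10 negative values. Of all genes called, 57.9% were higher, against 48.5% with upper-quartile scaling, which moved the median of all genes to -0.11 and under which Ctsa, Man2b1 and Lipa were not called.

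Markers of other cells moved here too. Of 10 neutrophil markers, 9 were called higher in AML1-ETO GMP, with sums of 606 to 3650 CPM against 2.76 to 46.2 CPM in AML1-ETO LT-HSC, where Mmp8 and Mmp9 were at 0. Of 14 monocyte, macrophage and dendritic cell markers tested, 5 were called higher and 13 had positive values, with sums of 331 to 3231 CPM against 109 to 391 CPM in LT-HSC, where Marco and Siglech were at 0. Of 11 mast cell and basophil markers, 4 were called lower and 2 higher, with sums of 2696 to 4081 CPM against 9542 to 12205 CPM and none at 0 in a whole group. Of 10 erythroid markers, 3 were called higher (216 to 4674 CPM against 49.9 to 134 CPM). The part of these cells in the members' differences was not tested.

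All 6 cysteine proteases but Ctsc were called higher. Ctsz was higher by 3.20 ± 0.25 (adjusted p = 4.2e-06), Ctsb by 2.45 ± 0.34 (adjusted p = 0.000180) and Ctsl by 1.42 ± 0.31 (adjusted p = 0.00450). Ctsl was at 45.1, 24.6 and 23.6 CPM in AML1-ETO GMP, so that it was called higher in GMP here and lower in GMP in control mice. Ctsz was at 437, 319 and 239 CPM and Hexa at 375, 264 and 249.7 CPM in AML1-ETO GMP. Hexa (1.26 ± 0.22) and Gusb (1.24 ± 0.21) were called higher, and Gusb was at 69.9, 72.6 and 90.7 CPM in AML1-ETO LT-HSC and 169, 233 and 151 CPM in AML1-ETO GMP. Cd68 was higher by 3.37 ± 0.64 (adjusted p = 0.00185) and Lamp1 by 1.46 ± 0.29 (adjusted p = 0.00253). Without AML1-ETO GMP 1 the value was 2.22 for Cd68, 4.74 for Ctsh and 1.82 for Ctsb, and without AML1-ETO LT-HSC 3 it was 6.48 for Ctsh, all still called. Cd63, high in AML1-ETO LT-HSC, was not called (-0.42 ± 0.31, adjusted p = 0.390).

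Idua, the iduronidase of dermatan and heparan sulfate breakdown, was at 49.0, 46.9 and 58.8 CPM in AML1-ETO LT-HSC and 16.05, 30.8 and 22.8 CPM in AML1-ETO GMP (-1.15 ± 0.31, adjusted p = 0.0175). In controls it was at 35.5, 35.7, 76.1 and 45.2 CPM in LT-HSC and 28.1, 30.5, 29.9 and 35.6 CPM in GMP. Lipa, the acid lipase of cholesteryl esters, was at 26.7, 28.9 and 38.0 CPM in AML1-ETO LT-HSC and 118, 41.2 and 38.2 CPM in AML1-ETO GMP (1.08 ± 0.35, adjusted p = 0.0416). Library 1 of the GMP group was far above the other 2, and without it the value was 0.36 (adjusted p = 0.310). Its control levels were 30.5, 26.7, 35.3 and 36.9 CPM in LT-HSC and 59.2, 58.1, 56.0 and 59.1 CPM in GMP. Lgmn, higher by 3.72 ± 1.16 (adjusted p = 0.0341), also rested on library 1, without which it was 1.53 (adjusted p = 0.396).

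Glb1 was at 83.5, 128 and 70.6 CPM, Naglu at 46.2, 36.6 and 33.6 CPM, Asah1 at 113, 78.8 and 70.3 CPM and Lamp2 at 249, 299 and 223 CPM in AML1-ETO GMP, and none of these 4 was called. Asah1 was at 60.6, 60.6 and 61.3 CPM and Ctsa at 117, 137 and 120.3 CPM in AML1-ETO LT-HSC, while Ctsa was at 71.7, 109, 121 and 76.2 CPM in control LT-HSC. With the replicate number as a block, 12 in place of 14 members were called, Lgmn (adjusted p = 0.120) and Lipa (0.0940) being lost. Leaving out 1 library also ended the call of Ctsa (without AML1-ETO LT-HSC 1 or 3 or GMP 1, adjusted p up to 0.0983), Man2b1 (without AML1-ETO LT-HSC 1 or 3 or GMP 1 or 2, up to 0.239), Idua (without AML1-ETO LT-HSC 3 or GMP 1, up to 0.0768), and Lgmn and Lipa (without any 1 AML1-ETO LT-HSC library, up to 0.119 and 0.135).

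Ctsc, Arsa, Ids, Gaa, Gla, Galc and Fuca1 passed the test in none of the 5 comparisons, nor did Psap, Mcoln1 and Tfeb. Gaa, the glucosidase of glycogen breakdown, ran from 123 to 200.5 CPM over the 14 libraries. Gla, the alpha-galactosidase, had 0 counts in control LT-HSC 3, where 3 counts would be 0.197 CPM, and reached 130.2 CPM in AML1-ETO GMP 2. Arsa, the arylsulfatase of sulfatide breakdown, was at 22.3, 32.5, 11.3 and 40.7 CPM in the controls and at 49.99, 62.4 and 57.1 CPM in AML1-ETO LT-HSC, without overlap and without passing the test (1.18 ± 0.40, adjusted p = 0.0963).

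The surrounding pathway was read from 128 other lysosome genes (hydrolases, membrane proteins, proton pump subunits, sorting factors, regulators and cathepsin inhibitors). In AML1-ETO against control LT-HSC, 115 were tested, 10 were called higher and 6 lower, beside 7.59% and 4.69% of all genes, with a median log2 fold change of 0.32. Among the smallest adjusted p-values were those of Gm2a, the activator that lifts GM2 ganglioside to hexosaminidase (3.04 ± 0.27, adjusted p = 0.00119), Gnptab, a subunit of the enzyme that makes the mannose 6-phosphate tag (2.83 ± 0.31, adjusted p = 0.00200), Flcn, folliculin, a regulator of the Rag GTPases (1.495 ± 0.17, adjusted p = 0.00201), Rptor, the mTORC1 subunit Raptor (1.47 ± 0.21, adjusted p = 0.00452), and Gga2, an adaptor for receptor sorting (-2.37 ± 0.35, adjusted p = 0.00559). Gm2a was at 76.3 ± 23.9 CPM in the controls and at 587 ± 129 CPM in AML1-ETO LT-HSC (mean ± SD, n = 4 and 3). Gm2a and Hexa act in the same reaction, and both were called higher. Chosen after their values were seen, Mitf, the TFEB relative of mast cells and melanocytes, was higher (5.29 ± 0.98, adjusted p = 0.0124), and Igf2r, the large mannose 6-phosphate receptor, was lower (-4.32 ± 0.71, adjusted p = 0.00841). The call of Mitf was lost without AML1-ETO LT-HSC 1 (0.0542) or 2 (0.0828). None of the 18 proton pump subunits tested was called by edgeR. An unadjusted p under 0.05 was found for 5 of these 18, beside 3761 of all 14589 genes tested, which is a similar share.

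In AML1-ETO against control GMP, 118 of these genes were tested, 6 were called higher and 1 lower, beside 5.47% and 3.96% of all genes. Those called higher included Ctse, cathepsin E (2.80 ± 0.40, adjusted p = 0.0107), Slc11a1, a metal transporter of phagosomes (5.00 ± 0.97, adjusted p = 0.0233), Atp6v0a1, a proton pump subunit (0.58 ± 0.12, adjusted p = 0.0242), Pld3, a lysosomal exonuclease (2.56 ± 0.56, adjusted p = 0.0295), and Pla2g15, a lysosomal phospholipase (0.50 ± 0.12, adjusted p = 0.0337). Slc36a1, an amino acid transporter, was lower (-0.57 ± 0.14, adjusted p = 0.0381). Each of these 6 named genes lost its call without at least 1 control GMP library (adjusted p up to 0.127), and without AML1-ETO GMP 1 the values of Slc11a1 and Pld3 were 3.68 and 1.505. In control GMP against control LT-HSC, 34 of 119 were higher and 12 lower, beside 13.9% and 10.6% of all genes, and 9 of the 18 proton pump subunits tested were higher and 0 lower.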

How the data were processed

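RNA sequencing counts per gene were analysed for 14 libraries in 4 groups. The authors deposited raw counts, and HISAT2 2.0.5, featureCounts 1.5.0-p3 and the build mm10 are named per the submitters' processing notes. Per the labels' protocols, libraries were made with a SMART-Seq v4 and a SMARTer stranded kit. For the counting, the strand setting and annotation release were not given in the sources used here. Without them, reads of overlapping genes cannot be assigned with certainty. Gene positions and exon lengths came from GENCODE M21, and promoters from RefSeq (GRCm38.p6).

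Counts were scaled by TMM, filtered by filterByExpr and tested with edgeR 4.0.16 (quasi-likelihood, Benjamini-Hochberg adjustment over all genes tested, threshold 0.05) in R 4.3.3. The AML1-ETO comparisons were fitted by cell type, on 7 libraries each. The difference of the effects and GMP against LT-HSC came from 1 fit of all 14. The SE is the log2 fold change divided by the square root of F. Intervals and limits from 3 counts cover counting error only. Among the rows, 105 repeat a symbol, and 27 with dates in place of symbols hold 0.14% of counts. Tested on simulated data, the 3 AML1-ETO fits recovered the largest known changes and missed many of the smallest. The simulated libraries shared the same mean profile and had the same spread for every gene and group. Because the spread of the real libraries differed between groups, the simulation does not show how well the fits recover changes here.

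Members and lists were chosen with earlier results of these data known. Values by library are given for members called in any comparison, for the highest member per kb of each role, and for Tfeb and Mcoln1. Of the other lysosome genes, those called in the AML1-ETO comparisons were named, at most 6 per comparison by adjusted p, and some of these are not reported here. Upper-quartile scaling, DESeq2 1.42.0, limma-voom (limma 3.58.1), no filter, other sets of samples, a replicate block and leaving out each library were tried, and leaving out the 3 libraries that stood apart was chosen after seeing the data. The labels do not say what a replicate number shares. Deviations of same-numbered AML1-ETO LT-HSC and GMP libraries correlated at 0.11, 0.21 and 0.17, and those of the other pairs of groups lay between -0.09 and 0.05. The main fits, also that of AML1-ETO GMP against AML1-ETO LT-HSC, did not pair libraries. Pairing entered only through the replicate block, as another setting.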

Additional observations from a re-analysis of the deposited data

Results flagged for a closer look

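Hexa in control LT-HSC 2 was at 105 CPM while the other 3 control LT-HSC libraries were at 60.5 to 66.7 CPM. Its gap to the nearest library was 0.861 of the range of the group, above Dixon's critical value for 4 libraries. This was the only 1 of 62 gene and group combinations to be so far from the rest, and chance gives about 1 in 20. The same library held the highest sum of B and plasma cell markers, and the part of these cells in the value was not tested.

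For 5 members the AML1-ETO effect differed between GMP and LT-HSC in the interaction test (edgeR, adjusted p under 0.05). On the log2 scale the difference was 4.06 for Ctsh, 2.23 for Ctsl and 3.18 for Arsb, each higher in GMP. It was -1.08 for Man2b1 and -2.37 for Cd63, each higher in LT-HSC.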

How the results depend on the processing

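Of 1355 single-gene values under other settings, 1120 kept their direction and side of the threshold, 182 lost and 41 gained a call, and 12 changed sign. The 12 were 6 genes of AML1-ETO against control in GMP, each without AML1-ETO GMP 1 alone and without the 3 libraries that stood apart. Over all left-out libraries their log2 fold changes ran from -0.38 to 0.85 (Ctsh), -0.13 to 0.31 (Ctsz), -0.086 to 0.23 (Hexa), -0.29 to 0.86 (Psap), -0.19 to 0.47 (Lamp1) and -0.64 to 0.94 (Cd68), the low ends being the values without AML1-ETO GMP 1. Except where a setting fits fewer samples or more genes, the cause of a change was not tested.

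In LT-HSC (4 members higher, 3 lower, 1791 genes called), DESeq2 called 5 lower and 2805 genes. The fit of all 14 libraries called 7 higher and 3166 genes. Leaving out 1 library gave 2 to 4 higher, 0 to 4 lower and 334 to 2376 genes. In GMP (1 higher, 0 lower, 1319 genes), DESeq2 called 7 higher and 2308 genes, no filter 816 genes, and the fit of all 14 libraries 2 higher and 458 genes. Leaving out 1 library gave 0 to 4 higher, 0 to 3 lower, 131 to 3514 genes and a members' median of -0.079 to 0.45. Without the libraries that stood apart there were 2 higher, 3 lower, 2477 genes and a median of -0.079.

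For the difference of effects (3 higher, 2 lower, 1021 genes), DESeq2 called 6 higher and 1781 genes. With limma-voom there were 1 higher and 1152 genes, and with no filter 1 lower and 874 genes. Leaving out 1 library gave 3 to 5 higher, 1 to 2 lower, 471 to 1477 genes and a median of -0.31 to 0.12. Without the libraries that stood apart 1637 genes were called and the median was -0.33. For GMP against LT-HSC in control mice (1 lower, 3949 genes), DESeq2 gave 3 lower and 4507 genes, and no filter 0 and 3275 genes. The 2 groups alone gave 2 lower and 3465 genes, and the set without the libraries that stood apart 2 and 5832 genes. Leaving out 1 library gave 0 to 2 lower and 2660 to 4584 genes. In AML1-ETO mice (1 lower, 3505 genes), the 2 groups alone gave 2 lower and 3296 genes. Leaving out 1 library there gave 0 to 1 lower, 2092 to 3298 genes and a median of 0.36 to 0.91. Without the libraries that stood apart the median was 0.355.

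The replicate block gave 2 higher, 0 lower and 525 genes in LT-HSC, 0 higher and 112 genes in GMP, and 568 genes for the difference. What same-numbered libraries share in these comparisons is not known from the labels. For GMP against LT-HSC in AML1-ETO mice, where same-numbered libraries correlated, the block changed the calls of Lgmn and Lipa and no other member's. With 3 or 4 libraries a group and levels near 2 CPM, as for Arsb and Ctsh in AML1-ETO LT-HSC, small differences could not be detected.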
